A study of Mus musculus with 36 samples.

Results

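This report is about 10 mouse genes of the Wnt pathway among the 39017 genes counted in 36 RNA-seq libraries of pancreatic fibroblasts: the ligands Wnt4 and Wnt5a, the R-spondin Rspo2, the R-spondin receptor Lgr5, the secreted inhibitors Notum, Sfrp1, Sfrp2, Dkk2 and Dkk3, and the intracellular inhibitor Axin2. They were taken by symbol. Wnt4, Notum and Rspo2 were picked on measured values of these same libraries: Wnt4 and Notum for the difference between 2 sets of co-cultures (clones E, H and V against K, M, N and T), and Rspo2 for its fall in co-culture. What those choices used is described here and not tested. The other 7 genes were not picked on a pattern of their own. They and the pathway lists were still chosen with earlier results of these data known. Their counts beside shares over all genes are therefore descriptions.

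The fibroblasts came from C57BL/6 mice and were grown alone (mono-culture) or for 48 h in contact with 1 of 8 tumour cell lines, with 4 libraries per group. Of these, 7 were tumour sub-clones, named by the letters E, H, K, M, N, T and V, and the other carried the label KPC1, whose meaning is not given. Tumour cells carried GFP and were removed by flow sorting before RNA was extracted. Each line is a single clone or line, the labels do not say whether the 4 libraries of a group came from separate cultures or animals, and p-values measure the spread between these libraries, which may be technical.

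Wnt proteins are secreted signals that bind Frizzled and LRP receptors on a cell. In the canonical branch this stops the destruction of beta-catenin, which then switches on target genes together with factors of the TCF and LEF family, and several of these targets, Axin2 among them, feed back to limit the signal. R-spondins act through the receptors LGR4, LGR5 and LGR6 to keep Wnt receptors at the surface, and SFRP proteins bind Wnts outside the cell. Most DKK proteins, the divergent DKK3 apart, act on the LRP co-receptors, and Notum removes the lipid that Wnts need to bind.

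Library totals lay between 12532122 and 21985538 counts. Values are CPM, counts scaled to a common library total after TMM normalization, and a gene with 3 counts or fewer in a library was treated as being at the floor, which covers counting error only. All 10 fibroblast markers averaged over 1 CPM in every group except Lum, a collagen-binding proteoglycan, with KPC1 (0.324 CPM). The 12 epithelial markers summed to 2.74 to 4.18 CPM in the mono-culture libraries and to 20.5 to 803.7 CPM in the co-culture libraries. Most of that sum was Krt8, Krt18, Krt19 and Cdh1, while Epcam had 0 counts in 24 of the 36 libraries, Cldn4 in 34 and Esrp1 in 31. The 5 immune markers summed to at most 15.4 CPM, with Cd3e at 0 counts throughout and Ptprc at 0 counts in 24 libraries, and the 4 endothelial markers to at most 6.33 CPM. The part of these other-cell transcripts in the results was not tested, and their values are given beside the results they move with.

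On a scale corrected for gene length (RPKM), the most abundant of the 10 genes in mono-culture was Sfrp2, with a mean level of 103.9 RPKM. Dkk3 had 19.2, Rspo2 13.7, Wnt5a 2.33, Sfrp1 2.10, Dkk2 0.739, Notum 0.388, Wnt4 0.192 and Axin2 0.167 RPKM, and Lgr5 was at 0.00252 RPKM. Over the 32 co-culture libraries the median level was 7.39 RPKM for Wnt5a, 3.56 for Axin2 and 0.700 for Rspo2. In bulk RNA, fewer cells that express a gene and less of its RNA per cell cannot be told apart.

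Rspo2 (ENSMUSG00000051920, chromosome 15, 43020794 to 43170826, minus strand, GRCm38) encodes a secreted amplifier of Wnt signalling. Its mono-culture libraries had 45.1, 59.4, 38.9 and 31.5 CPM, and all 32 co-culture libraries lay below the lowest of these. The mean was 43.7 ± 11.8 CPM in mono-culture (SD, n = 4), and the fall, on which the gene was picked, was -3.97 on the log2 scale (SE 0.230) when the 7 clonal co-cultures were averaged. What the choice did not use was the difference among clones, and Rspo2 differed among the 7 clonal co-cultures (edgeR F-test, adjusted p = 2.3e-07).

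Clone K kept the highest level, with 6.88, 13.1, 8.88 and 14.5 CPM. Clone M had 5.96, 8.20, 2.35 and 3.51 CPM, and clone V the lowest, with 0.814, 0.915, 0.490 and 0.838 CPM. The libraries of clones K and V did not overlap, and the ratio of their means was 14.2. The means of the lines between them were 3.11 CPM with clone E, 2.69 with clone N, 2.38 with clone T, 1.47 with clone H and 1.42 with KPC1, and every pair of neighbours in the order of co-cultures overlapped. With KPC1, replicate 2 stood apart at 2.89 CPM, and without it the log2 difference from mono-culture moved from -4.95 to -5.55 and that from the mean of the clones from -0.97 to -1.58.

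Wnt4 (ENSMUSG00000036856, chromosome 4, 137277489 to 137299726, plus strand) had 0.495, 0.330, 1.29 and 0.960 CPM in mono-culture. The levels by clone, on which it was picked, were highest with clone M (7.51, 3.16, 6.93 and 5.52 CPM) and clone N (4.70, 10.8, 3.63 and 3.01 CPM). In clones H and V no library exceeded 3 counts, and their means were 0.111 and 0.0527 CPM. The 4 lines with high levels overlapped one another, and clones H and V lay below every mono-culture library.

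With clone K the libraries of Wnt4 spread from 1.41 to 10.6 CPM, and without replicate 3 the log2 difference from mono-culture moved from 2.69 to 1.99. With clone T they spread from 0.879 to 7.25 CPM and with clone E from 0.862 to 2.97 CPM. Clone T had 7.25, 0.879, 1.86 and 5.09 CPM at epithelial sums of 803.7, 289.5, 398.1 and 513.3 CPM. In clone E the highest Wnt4, 2.97 CPM, was at the lowest sum, 264.5 CPM. With only the 2 libraries per co-culture of lowest epithelial sum, log2 values were 0.84 in place of 2.31 (clone T) and 1.60 in place of 2.69 (clone K). The part of tumour cell RNA in Wnt4 was not tested. The libraries of clone E and those of clone T each overlapped those of mono-culture, and they overlapped one another. The log2 difference between the mean of clones E, H and V and that of clones K, M, N and T was -4.41 (SE 0.420), a value the choice of the gene fixed. Averaged over the 7 clones, whose levels the choice used, Wnt4 differed from mono-culture by a log2 value of 0.81 (SE 0.560), given without a test. The KPC1 libraries spread from 0.241 to 1.11 CPM and were not shown to differ from mono-culture (log2 value 0.12, SE 0.659, edgeR adjusted p = 0.89, 95% interval of the fold 0.443 to 2.65).

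Notum (ENSMUSG00000042988, chromosome 11, 120653788 to 120661175, minus strand) encodes a secreted carboxylesterase that inactivates Wnts. Its mono-culture libraries had 1.27, 0.770, 0.837 and 0.411 CPM. The means by clone, again a description of the choice, were 8.79 CPM with clone K, 8.57 with clone M, 7.66 with clone N, 2.98 with clone T, 2.24 with clone E, 1.18 with clone V and 0.818 with clone H. All libraries of clones K, M, N, T and E lay above the highest mono-culture library, and those of clones V and H overlapped it. Averaged over the 7 clones, again values the choice used, Notum differed from mono-culture by a log2 value of 1.99 (SE 0.336), and 21 of the 28 clonal libraries lay above all mono-culture libraries. With KPC1, which the choice did not use, it had 1.11, 1.09, 0.986 and 1.08 CPM and was not shown to differ from mono-culture (log2 fold change 0.39, SE 0.424, edgeR adjusted p = 0.44, 95% interval of the fold 0.737 to 2.33). The log2 difference between KPC1 and the mean of the clones was -1.60 (SE 0.321), also given without a test.

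**Figure D1:**
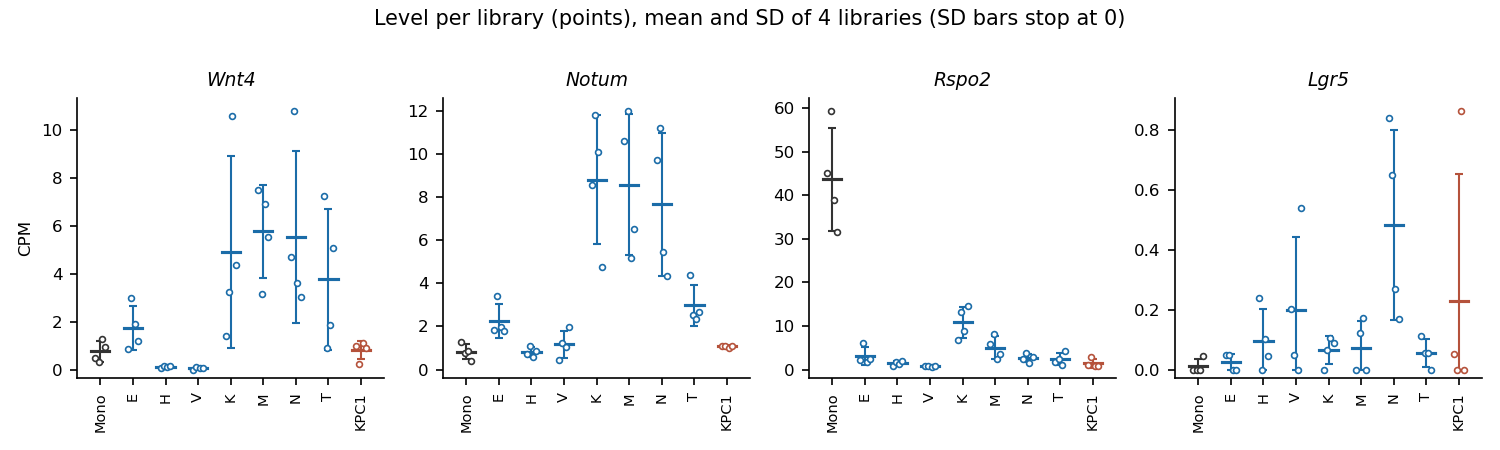
Level in CPM (linear axes) of Wnt4, Notum, Rspo2 and Lgr5 in each of the 36 libraries by group, with mono-culture in black, the 7 clones in blue and KPC1 in red; points are libraries, horizontal lines means and bars the SD of 4 libraries. Rspo2 is highest in mono-culture, at 43.7 CPM on average, and Wnt4 and Notum are highest with clones K, M and N.

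Lgr5 (ENSMUSG00000020140, chromosome 10, 115450311 to 115587780, minus strand), an R-spondin receptor and stem cell marker, was close to undetected and did not pass the filter on low counts. The mono-culture libraries had 0, 0, 0 and 1 counts. The highest levels were in clone N, with 0.841, 0.650, 0.269 and 0.170 CPM, and in KPC1 replicate 3, with 0.863 CPM against at most 0.0527 CPM in the other 3. The highest count in any library was 17, and no comparison of Lgr5 was made at this depth.

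The first comparison asked which of the 7 members not picked for their patterns changed on contact with tumour cells. Of these, 6 were tested, all but Lgr5. In the mean of the 7 clonal co-cultures 5 of the 6 differed from mono-culture, against 49.2% of the 14439 genes tested: Axin2, Wnt5a, Dkk2 and Sfrp1 were higher and Sfrp2 was lower, where 24.3% of all genes were higher and 24.9% lower. Dkk3 was not called. By line, 4 of the 6 were called with clone E (32% of all genes), 3 with clone H (54.2%), 4 with clone V (58.3%), 4 with clone K (19.1%), 4 with clone M (23%), 4 with clone N (39.0%), 4 with clone T (49.8%) and 4 with KPC1 (59.0%). For clones H, V and T and for KPC1 these shares are near the background, and 6 genes are too few to read more from them. The 8 comparisons share the mono-culture libraries. Axin2 and Wnt5a were called higher in each of the 8 co-cultures, which held for 3.42% of all genes tested. Axin2 had 3 counts in mono-culture replicate 3 and passed the filter on low counts through co-culture libraries alone. It could hardly be called lower, so its calls against mono-culture, and their part in these counts, are descriptions.

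**Figure D2:**
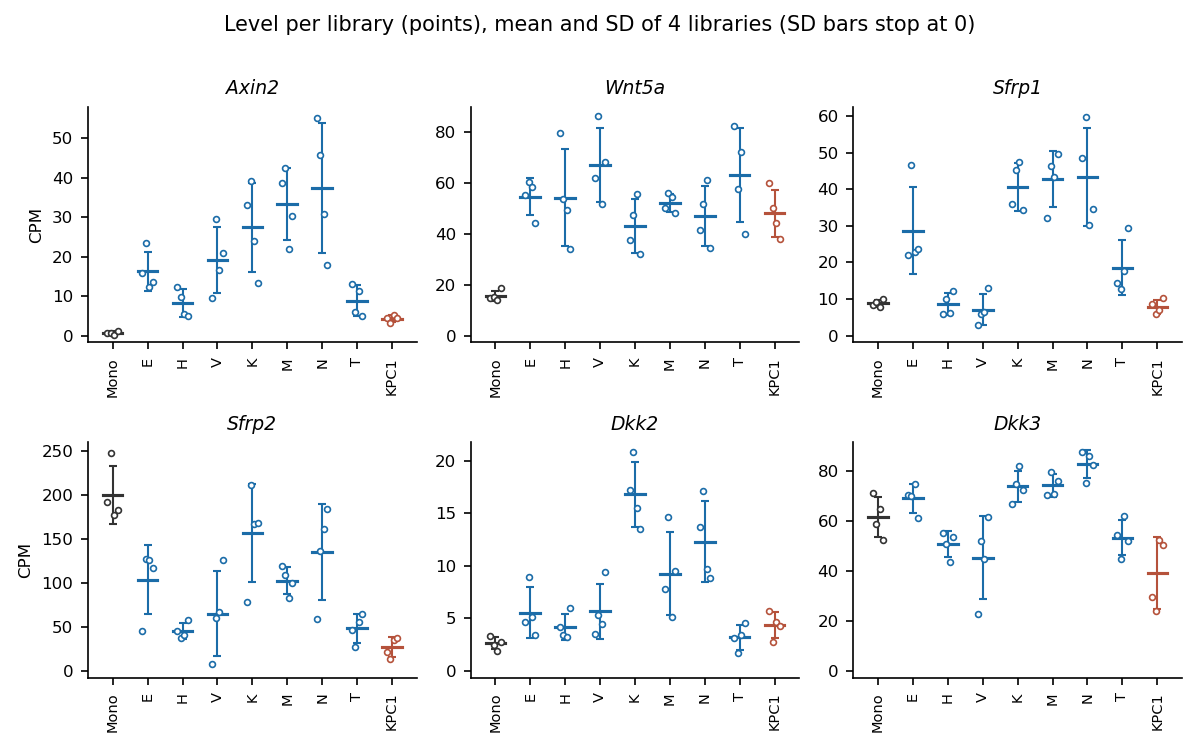
Level in CPM (linear axes) of the 6 tested members not picked for their patterns in each library by group, drawn as points with the mean and SD of 4 libraries; mono-culture is black, the clones blue and KPC1 red. Axin2 and Wnt5a lie above every mono-culture library in all 32 co-culture libraries, Sfrp1 overlaps the mono-culture libraries with clones H and V and KPC1, and Dkk3 has the smallest mean clonal log2 change, 0.02.

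Axin2 (ENSMUSG00000000142, chromosome 11, 108920349 to 108950783, plus strand) is a scaffold of the complex that marks beta-catenin for destruction and a widely used readout of canonical Wnt signalling. It had 0.661, 0.550, 0.228 and 1.28 CPM in mono-culture, from 3 to 28 counts. With clone N the 4 libraries had 55.2, 45.7, 30.9 and 17.8 CPM, with clone M a mean of 33.4 ± 9.20 CPM (SD, n = 4), and with clone K 33.1, 39.3, 24.1 and 13.4 CPM. All 32 co-culture libraries were above all 4 mono-culture libraries. The means were 19.2 CPM with clone V, 16.3 with clone E, 8.88 with clone T and 8.19 with clone H, and neighbours in this order overlapped.

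The start regions of Axin2 and Dkk2 are shown because both genes rose in co-culture and beta-catenin acts through TCF and LEF factors, whose recognition letters include CTTTG. RefSeq start sites were found for 4 of the 10 genes (Axin2, Dkk2, Sfrp2 and Wnt4). The 250 bases before each start are given on the plus strand of GRCm38.p6, in lower case, with matches to CTTTG on either strand in capitals, at chr11:108920099-108920348 for Axin2 and chr3:132085042-132085291 for Dkk2.
Axin2: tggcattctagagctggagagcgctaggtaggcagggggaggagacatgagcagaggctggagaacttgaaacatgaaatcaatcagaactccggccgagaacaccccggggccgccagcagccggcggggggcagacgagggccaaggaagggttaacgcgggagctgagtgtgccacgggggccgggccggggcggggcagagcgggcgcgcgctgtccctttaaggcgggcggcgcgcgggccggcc
Dkk2: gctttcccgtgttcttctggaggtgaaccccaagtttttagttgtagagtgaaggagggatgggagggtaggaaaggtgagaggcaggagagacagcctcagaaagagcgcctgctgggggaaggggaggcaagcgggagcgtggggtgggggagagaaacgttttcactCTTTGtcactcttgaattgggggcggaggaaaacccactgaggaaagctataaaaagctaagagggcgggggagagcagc
The Dkk2 window held 1 match and the Axin2 window 0, as did the windows of Sfrp2 and Wnt4. Of the 32851 RefSeq windows of the same length 48.6% held a match, and the longer forms CTTTGAT and CTTTGTT, each containing CTTTG, were held by 3.21% and 5.03% and by none of the 4. A match is a description of letters only, and a window without one says only that these letters are not in it.

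Averaged over the clones, Axin2 was higher by a log2 value of 4.67 (SE 0.465, edgeR adjusted p = 2.5e-09), which is 25.4-fold with a 95% interval of 13.5 to 47.9. As Axin2 passed the filter on low counts through co-culture libraries alone, its p-values against mono-culture are descriptions. On the log2(RPKM + 1) scale, which understates the change of low genes, the mean clonal value was 2.18. Among the 7 clones Axin2 differed (F-test, adjusted p = 1.9e-05), with a ratio of 4.57 between clones N and H. The smallest rise was with KPC1, where the libraries had 4.38, 3.20, 5.24 and 4.39 CPM (log2 fold change 2.56, SE 0.534, adjusted p = 1.5e-04). KPC1 stood below the mean of the clones by a log2 difference of -2.11 (SE 0.354, adjusted p = 3.4e-05).

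The order of libraries by Axin2 and by epithelial markers differed from line to line. In clone K, replicate 2 had the lowest epithelial sum of all co-culture libraries, 20.5 CPM, and the highest Axin2 of its group, 39.3 CPM, whereas replicate 4 had a sum of 304.8 CPM and 13.4 CPM of Axin2. In clone T, replicate 1 had the highest sum of all, 803.7 CPM, and the highest Axin2 of its group, 13.1 CPM. In clone V, replicates 1 and 2 had sums of 38.1 and 32.4 CPM and Axin2 levels of 9.56 and 29.5 CPM.

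Wnt5a (ENSMUSG00000021994, chromosome 14, 28504750 to 28527448, plus strand) encodes a ligand best known for signalling without beta-catenin. The mono-culture libraries had 14.6, 15.3, 14.0 and 18.6 CPM. All 32 co-culture libraries were higher, from 31.9 CPM in clone K to 86.3 CPM in clone V, so the groups did not overlap with mono-culture. The means were 67.1 CPM with clone V, 63.1 with clone T, 54.7 with clone E, 54.3 with clone H, 52.2 with clone M, 48.1 with KPC1, 47.2 with clone N and 43.2 with clone K.

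Log2 fold changes of Wnt5a against mono-culture ran from 1.46 (SE 0.231) with clone K to 2.10 (SE 0.233) with clone V, and the mean clonal value was 1.78 (SE 0.197, edgeR adjusted p = 1.5e-08). Of the 6 genes it was the one for which no difference among the clones was shown (F-test, adjusted p = 0.12). This call depended on the fit and on single libraries. The adjusted p of the F-test was 0.049 with the replicate number as a block. It was 0.046 without clone H replicate 1 and 0.037 without clone T replicate 4. KPC1 was not shown to differ from the mean of the clones either (log2 difference -0.17, SE 0.169, adjusted p = 0.46), with a 95% interval of the fold from 0.709 to 1.12.

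**Figure D3:**
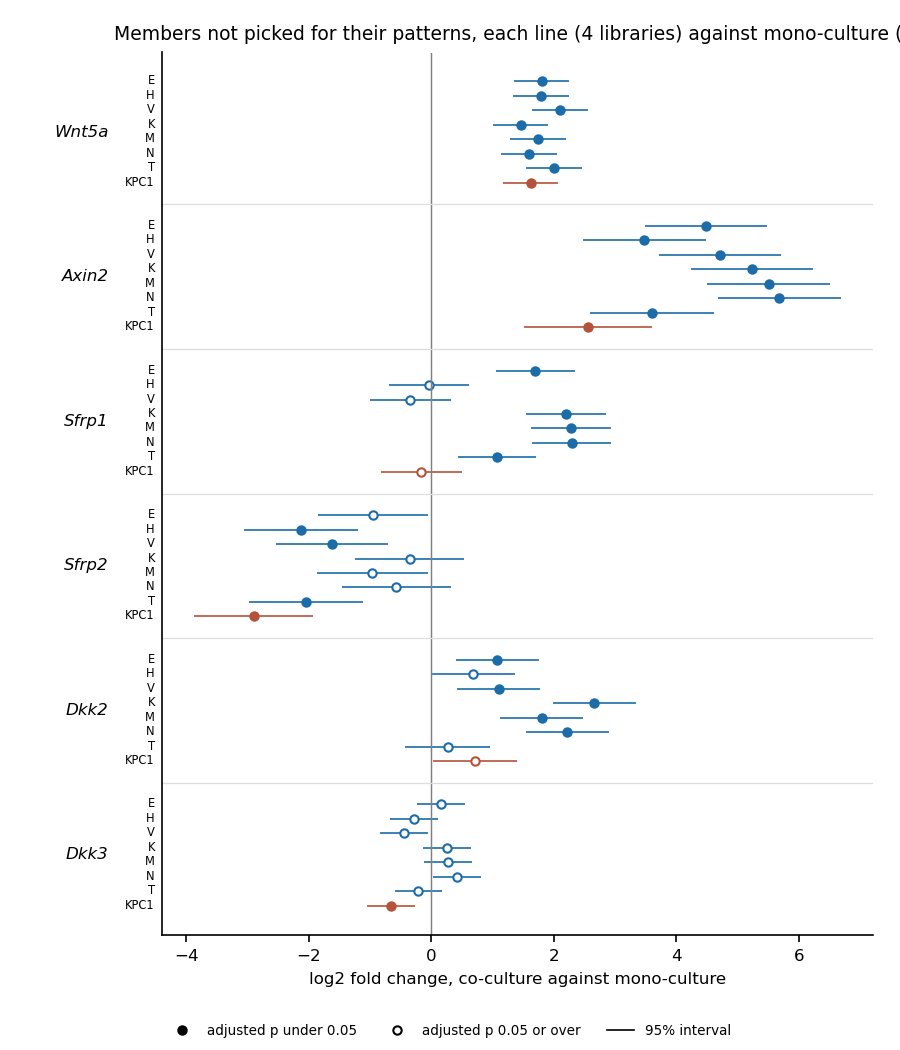
Log2 fold change of each co-culture against mono-culture (edgeR, 4 libraries per group) for the 6 tested members not picked for their patterns, 1 row per tumour line. Lines are 95% intervals, and filled points passed an adjusted p of 0.05. Wnt5a lies between 1.46 and 2.10 in all 8 lines, Axin2 runs from 2.56 with KPC1 to 5.68 with clone N, and Sfrp1 and Sfrp2 separate the lines.

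Sfrp1 (ENSMUSG00000031548, chromosome 8, 23411502 to 23449632, plus strand) encodes a secreted Frizzled-related protein that binds Wnts. It had 8.31, 9.19, 7.83 and 9.92 CPM in mono-culture. The level was higher with clone N (48.6, 59.6, 30.3 and 34.5 CPM; log2 fold change 2.29, SE 0.331, edgeR adjusted p = 2.5e-06), clone M (mean 42.8 CPM) and clone K (mean 40.7 CPM). Clone E rose less, with 21.9, 46.6, 22.8 and 23.6 CPM (1.70, SE 0.328, adjusted p = 2.0e-04). The clone T libraries, from 12.7 to 29.4 CPM, also lay above mono-culture (1.07, SE 0.327, adjusted p = 0.0075), but without clone T replicate 4 the value was 0.75 with an adjusted p of 0.06.

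The levels of Sfrp1 with clone H (5.93, 9.95, 6.19 and 12.1 CPM), clone V (7.02 ± 4.27 CPM, SD, n = 4) and KPC1 (8.70, 5.79, 6.90 and 10.2 CPM) overlapped mono-culture. Their log2 fold changes were -0.04, -0.34 and -0.16, with adjusted p-values of 0.93, 0.4 and 0.7. Without clone V replicate 4 the clone V value was -0.81 with an adjusted p of 0.039. Sfrp1 had the smallest adjusted p among the clones of the 6 genes, 2.5e-08, and KPC1 lay below the mean of the clones by -1.47 (SE 0.276, adjusted p = 1.2e-04).

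Sfrp2 (ENSMUSG00000027996, chromosome 3, 83766321 to 83774316, plus strand), a relative of Sfrp1, moved the other way. It had 192.1, 247.7, 176.8 and 182.6 CPM in mono-culture, and 30 of the 32 co-culture libraries lay below the lowest of these. The lowest level was with KPC1, with 21.5, 12.9, 35.5 and 37.2 CPM (log2 fold change -2.90, SE 0.494, edgeR adjusted p = 1.1e-05). It was lower with clone H (mean 45.5 CPM, adjusted p = 4.1e-04), clone T (48.2 CPM, 6.8e-04) and clone V (65.1 CPM, 0.0039). The clone V libraries spread widely, with 7.68, 59.8, 66.6 and 126.2 CPM.

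With clones E, M, N and K the means of Sfrp2 were 103.3, 102.6, 134.9 and 156.4 CPM, and none of these passed the test (adjusted p 0.12, 0.14, 0.34 and 0.65). Averaged over the clones Sfrp2 was lower (-1.23, SE 0.311, edgeR adjusted p = 0.0015), and the clones differed (F-test, adjusted p = 0.0044). The summed fibroblast markers also differed by line, with a median of 21731.3 CPM in mono-culture, 15064.5 with KPC1, 16885.0 with clone T, 16928.2 with clone H, 17127.2 with clone V and up to 27247.2 with clone K. Their part in the levels of Sfrp2 was not tested. An antisense gene, Gm26771, overlaps Sfrp2 and had group means from 0.141 to 2.03 CPM. Gm11670, which overlaps Axin2, had at most 5 counts in a library, and Gm2670 over Wnt5a and A930009A15Rik over Lgr5 had 0 counts. Levels of Myadml2os and Notumos, antisense genes that overlap Notum, were not available. The libraries were strand specific, but whether counting used the strand is not given in the sources used here.

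Dkk2 (ENSMUSG00000028031, chromosome 3, 132085292 to 132180304, plus strand) encodes a secreted modulator of the LRP co-receptors, and its start window was shown with that of Axin2. It had 3.30, 2.48, 1.90 and 2.79 CPM in mono-culture and was highest with clone K (17.2, 20.8, 15.5 and 13.5 CPM; log2 fold change 2.66, SE 0.346, edgeR adjusted p = 1.6e-06). Clone N followed with 13.7, 17.1, 9.67 and 8.79 CPM and clone M with 7.76, 14.6, 5.16 and 9.48 CPM. All libraries of these 3 clones lay above mono-culture, and the clones differed (F-test, adjusted p = 6.4e-07).

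The calls of Dkk2 with the other lines were weaker. It was called higher with clone V (1.10, adjusted p = 0.0073) and clone E (1.08, adjusted p = 0.016) and not with KPC1 (0.72, adjusted p = 0.078), clone H (0.68, adjusted p = 0.099) or clone T (0.27, adjusted p = 0.54). The clone V call was lost without clone V replicate 4 (0.75, adjusted p = 0.066), and the clone E call without clone E replicate 2 (0.76, adjusted p = 0.1) or mono-culture replicate 3 (0.96, adjusted p = 0.054). Without KPC1 replicate 2 the KPC1 value was 0.88 with an adjusted p of 0.04.

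Dkk3 (ENSMUSG00000030772, chromosome 7, 112116017 to 112159057, minus strand), a divergent family member, varied little against mono-culture. It had 71.0, 58.5, 64.8 and 52.2 CPM there, and averaged over the clones the log2 difference was 0.02 (SE 0.150, edgeR adjusted p = 0.91), with a 95% interval of the fold from 0.830 to 1.25. Levels among the clones did differ (F-test, adjusted p = 0.0013), between means of 82.6 (clone N) and 45.3 CPM (clone V). The one line called against mono-culture was KPC1, with 29.5, 24.1, 52.4 and 50.4 CPM (-0.66, SE 0.200, adjusted p = 0.0056). Clone V was close to the threshold (-0.44, adjusted p = 0.055) and passed it without mono-culture replicate 4 (adjusted p = 0.039), clone V replicate 2 (0.043) or clone V replicate 4 (0.01).

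The next comparisons asked whether the members differed among clones and whether KPC1 differed from them. Of the 6 genes, 5 differed among the 7 clonal co-cultures, against 67.5% of all genes tested, a share near the background. Against the mean of the clones 5 of the 6 were called with KPC1, where 41.1% of all genes were called in either direction. All 5 were lower, against 18.8% of all genes: Axin2, Sfrp1, Sfrp2, Dkk2 and Dkk3. The Dkk2 value (-0.69, SE 0.264, adjusted p = 0.037) was lost without KPC1 replicate 2 (-0.52, adjusted p = 0.17), replicate 3 (-0.73, adjusted p = 0.062) or replicate 4 (-0.67, adjusted p = 0.077). With only the 2 libraries of each co-culture that had the lowest epithelial sums, a setting chosen after seeing the data, 3 of the 6 were called among the clones and 2 with KPC1 against the clones, while the count for the mean of the clones against mono-culture was again 5.

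The other genes of the pathway were taken from lists of ligands, R-spondins, receptors, inhibitors, beta-catenin machinery and feedback targets. Of 78 genes besides the members, 57 were tested. In the mean of the 7 clones 27 were higher, 9 were lower and 21 were not called, where 24.3% of all genes tested were higher and 24.9% lower, and their median log2 fold change was 0.25, against 0.01 over all genes. The median was the same with Wnt7a, which had 0 counts in mono-culture, set at its lower bound against a floor of 3 counts per library. That bound still lay above the median, so setting it could not move the median and says nothing about other low genes. Wnt7a and Wnt7b, among the 27, passed the filter on low counts through co-culture libraries alone, and whether others of the 27 did so is not given here.

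Of the 8 other genes listed as beta-catenin feedback targets 7 were tested. All 7 were higher in the mean of the clones, against 24.3% of all genes, with a median of 1.68. These were Nkd1, Nkd2, Lef1, Tcf7, Apcdd1, Ccnd1 and Myc, and Sp5 was at 0 to 2 counts. Apcdd1, Ccnd1 and Myc fall outside the rule for named genes and were named after their values were seen. The count depends on which genes the list holds. Rnf43 and Znrf3, also named after their values were seen, were listed with the R-spondin receptors. Rnf43 was not called (0.55, SE 0.511, edgeR adjusted p = 0.4) and Znrf3 was higher (0.56, SE 0.119, adjusted p = 2.1e-04). Nkd2, which encodes a Dishevelled-binding inhibitor, had 2.09, 2.04, 1.22 and 1.69 CPM in mono-culture and 67.8, 132.2, 102.0 and 38.3 CPM with clone K. Averaged over the clones it was higher by 3.75 on the log2 scale (SE 0.512, edgeR adjusted p = 6.9e-07), it differed among the clones (adjusted p = 9.3e-08), and KPC1, with 3.85, 3.56, 4.31 and 4.56 CPM, lay below the clones by -2.56 (adjusted p = 6.3e-05). Nkd1, its relative, rose from 2.08 ± 0.556 CPM (SD, n = 4) to 8.12 CPM with KPC1 and to higher means with each clone (mean clonal 2.83, SE 0.404, adjusted p = 1.2e-06).

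The transcription factor Lef1 rose from 5.02 ± 0.548 CPM to between 16.4 (clone H) and 33.3 CPM (clone K) (mean clonal 2.09, SE 0.184, adjusted p = 1.2e-10). Its relative Tcf7 rose from 8.31 ± 1.32 CPM to between 18.8 and 32.7 CPM (1.68, SE 0.131, adjusted p = 1.1e-11). Nkd1, Lef1 and Tcf7 were called higher in each of the 8 co-cultures, 3 of the 7 tested targets, against 3.42% of all genes tested. The other targets split by line. Myc was highest with KPC1 (329.0 CPM) and Ccnd1 with clone T (347.2 CPM), while Apcdd1, a membrane-bound Wnt inhibitor, was highest with clone M (223.8 CPM) and had log2 fold changes of -0.01 with clone H and -0.12 with clone V, neither of which was called.

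**Figure D4:**
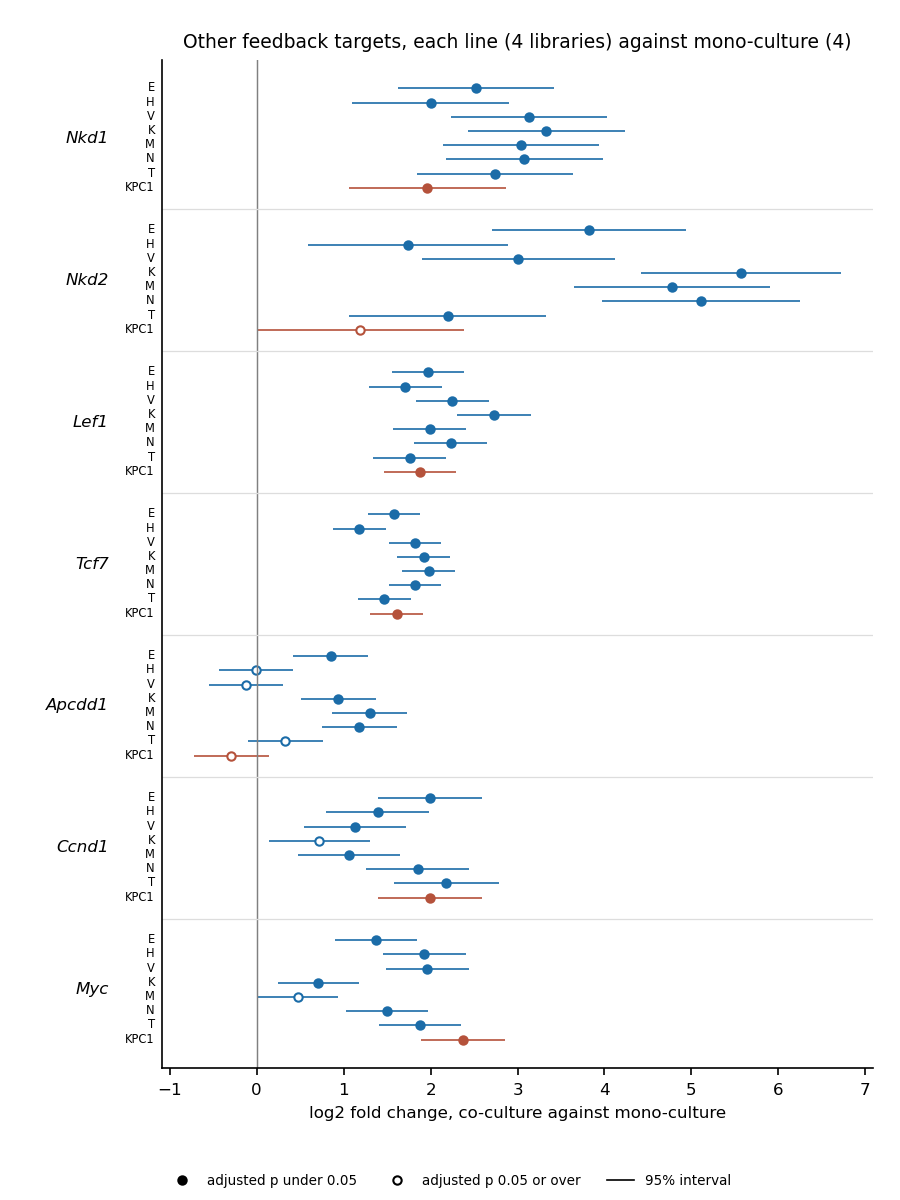
Log2 fold change of each co-culture against mono-culture (edgeR, 4 libraries per group) for the 7 other tested beta-catenin feedback targets, 1 row per line. Lines are 95% intervals and filled points passed an adjusted p of 0.05. Nkd1, Lef1 and Tcf7 are filled in all 8 lines, Nkd2 runs from 1.19 with KPC1 to 5.57 with clone K, and Myc is lowest with clone M, at 0.47.

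Among R-spondins, Rspo3 fell beside Rspo2. It had 18.1 ± 4.79 CPM in mono-culture (SD, n = 4), at least 14.6 in each library, and means between 1.41 CPM with KPC1 and 6.48 CPM with clone N, and no co-culture library reached the mono-culture range. The average over the clones was -2.42 on the log2 scale (SE 0.188, edgeR adjusted p = 1.1e-11), and it differed among the clones (adjusted p = 5.3e-07). Rspo1 and Rspo4 were not tested, with at most 7 and 2 counts in a library. Of the receptors for R-spondins, Lgr4 had the smallest p among clones of the named pathway genes (adjusted p = 1.3e-11). It had 23.3 ± 0.412 CPM in mono-culture (SD, n = 4), was higher with clones M (31.3 CPM, adjusted p = 0.0026) and K (30.5 CPM, adjusted p = 0.0072) and lower with the 6 other lines, down to 13.8 CPM with clone H.

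Of 9 other Wnt ligands tested, Wnt6, Wnt7a, Wnt7b, Wnt10a and Wnt11 were higher in the mean of the clones and Wnt5b and Wnt9a lower, against 24.3% and 24.9% of all genes. All but Wnt7b are named here after their values were seen. Wnt7a and Wnt7b had 4 counts or fewer in each mono-culture library and passed the filter on low counts through co-culture libraries alone. They could hardly be called lower, so their calls are descriptions. Wnt7b had 1 to 4 counts in the mono-culture libraries and means from 1.67 CPM with clone K to 26.3 CPM with clone N (log2 fold change 5.40, SE 0.976, adjusted p = 3.9e-05). Within clone K, Wnt7b had 0.707, 0.0650, 2.59 and 3.33 CPM in the libraries whose epithelial sums were 52.7, 20.5, 235.3 and 304.8 CPM, and the part of tumour cell RNA in its level was not tested. Wnt7a had 0 counts in all 4 mono-culture libraries and up to 122 counts in a co-culture library. It too varied with the epithelial sums in some lines: with clone M it had 0.807, 0.304, 2.98 and 1.19 CPM at sums of 143.5, 54.7, 526.6 and 282.8 CPM, whereas with clone N it stayed between 0.198 and 0.284 CPM at sums from 440.1 to 677.1 CPM. The part of tumour cell RNA in Wnt7a was not tested either.

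Among the pathway genes that averaged at least 2 CPM, the lowest mean clonal value after Rspo3 was that of Pygo1, a co-factor of beta-catenin (-0.96, SE 0.157, edgeR adjusted p = 7.8e-06). Next came Tcf7l1, a TCF factor best known as a repressor (-0.51, SE 0.0912, adjusted p = 2.6e-05), and Dvl2, a Dishevelled adaptor (-0.50, SE 0.0533, adjusted p = 4.7e-09). The receptor Fzd2 followed (-0.48, SE 0.116, adjusted p = 9.5e-04). Dvl2 fell from 141.0 ± 3.79 CPM in mono-culture (SD, n = 4) to between 83.6 CPM with clone N and 111.6 CPM with clone K. Among the pathway genes that averaged at least 2 CPM, Pygo1, Tcf7l1, Fzd2 and the WNT5A receptor Ror1 had, with Lgr4, the smallest p among clones. The mean of Tcf7l1 was 80.7 CPM in mono-culture and 34.2, 39.7 and 39.9 CPM with clones V and H and KPC1, against 86.9 with clone M and 82.4 with clone K. Ror1 had 2.72 CPM in mono-culture, 9.88 with clone K and 1.59 with KPC1.

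**Figure D5:**
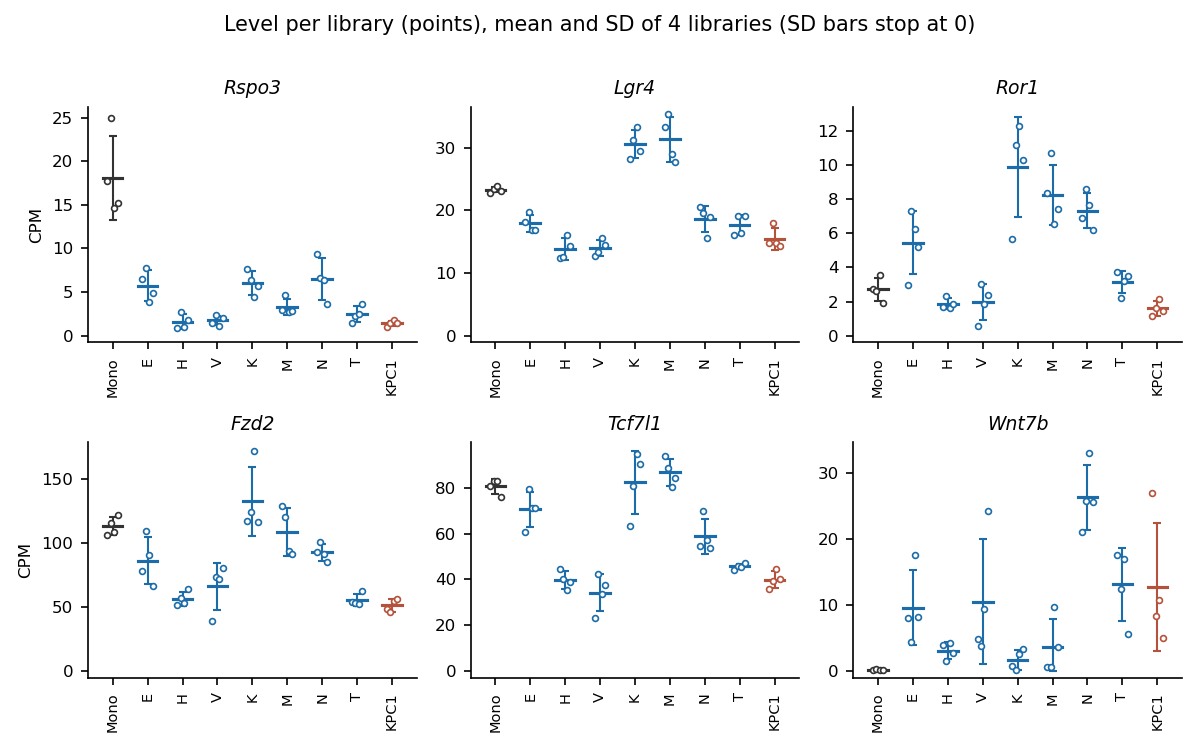
Level in CPM (linear axes) of Rspo3, Lgr4, Ror1, Fzd2, Tcf7l1 and Wnt7b in each library by group, drawn as points with the mean and SD of 4 libraries; mono-culture is black, the clones blue and KPC1 red. Rspo3 is highest in mono-culture, at 18.1 CPM on average, Lgr4 rises above mono-culture with clones K and M alone, and Wnt7b is highest with clone N, at 26.3 CPM.

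Finally, the genes whose mean log2 CPM over the 9 groups was most like that of the picked members were found among 11694 genes that averaged at least 2 CPM. For Wnt4 they were Wnk4 (Pearson r = 0.974), Inpp5k (0.969) and Igdcc4 (0.967), for Notum Kank1 (0.974), Enpp2 (0.973) and Mtus1 (0.960), and for Rspo2 Scrn1 (0.992), Osgep (0.982) and A530054K11Rik (0.981). Among the members, the pairs most alike over the 9 group means were Notum with Sfrp1 (0.94) and Wnt4 with Sfrp1 (0.90). These values are descriptions over 9 points that share 1 scaling.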

How the data were processed

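RNA from 36 fibroblast libraries was prepared with poly(A) selection as strand-specific libraries. The authors deposited read counts per gene, and RPKM values scaled by gene length and library total. The submitters' processing notes name mm10, STAR, featureCounts and edgeR without versions, and the annotation is not given in the sources used here. Coordinates come from GENCODE M21 (GRCm38). Counts were tested with edgeR 4.0.16 in R 4.3.3: filterByExpr (14439 genes kept), TMM, 1 coefficient per group over 36 libraries, glmQLFTest, and Benjamini-Hochberg adjustment over all genes with a threshold of 0.05. Intervals are 95%, from the SE. Alternatives were DESeq2 1.42.0, limma 3.58.1 on log2(RPKM + 1) or log2(RPKM + 0.1), RLE or library size scaling, other filters, only the groups compared, the replicate number as a block, 1 library left out, and 2 libraries per co-culture with the lowest epithelial sums, added after seeing the data. The fitting was tested on simulated data. The members and lists were chosen with earlier results of these data known. Named pathway genes averaged at least 2 CPM and were the 5 highest and 5 lowest of the mean clonal contrast and the 5 smallest p among clones, and the 3 genes most like each picked member were named as well. The lowest chi-square per degree of freedom between replicate libraries was 5.53 over 54 pairs, so none was counted as a repeat deposit.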

Additional observations from a re-analysis of the deposited data

Results flagged for a closer look

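Of 90 sets of 4 libraries (10 genes in 9 groups), 8 held a library whose gap to the next exceeded Dixon's critical share of the range, where chance flags about 1 in 20. In clone E replicate 2 this was so for Sfrp1 (46.6 CPM, the others 21.9 to 23.6), Notum (3.40 CPM, the lowest of the others 1.79) and Rspo2 (6.14 CPM, the others 1.66 to 2.36), all higher than in the rest of the group. In clone E replicate 1 Sfrp2 was low, at 45.1 CPM against 116.3 to 126.5. The others were Rspo2 in KPC1 replicate 2 (2.89 CPM), Notum in clone T replicate 1 (4.38 CPM), Lgr5 in KPC1 replicate 3 (0.863 CPM) and Lgr5 in mono-culture replicate 4 (0.0457 CPM, a single count beside libraries at 0).

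The response to co-culture differed between tumour lines by the edgeR F-test among the 7 clonal co-cultures for Sfrp1 (adjusted p = 2.5e-08), Rspo2 (2.3e-07), Dkk2 (6.4e-07), Axin2 (1.9e-05), Dkk3 (0.0013) and Sfrp2 (0.0044).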

How the results depend on the processing

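Counts of members called stayed within 1.5 times the reported value except in 3 cases. With clone H, fitting the 8 libraries compared alone gave 5 genes in place of 3, with the spread estimated from fewer libraries. With the 2 libraries per co-culture of lowest epithelial sum, 3 genes in place of 5 were called among the clones and 2 in place of 5 with KPC1 against the clones, in a fit with fewer samples. The values of single genes past the threshold kept their direction in all alternatives run. Co-culture libraries with the same replicate number shared some variation, which the main fit did not model. Same-numbered co-culture libraries deviated together with r from -0.52 to 0.69 (median 0.14, over 0.1 in 63 of 112 pairs). Pairs with different numbers had a median of -0.04, with 89 of 336 over 0.1. Not every same-numbered pair passed 0.1, and for mono-culture with a co-culture of the same number the median was -0.02. The labels do not say what a number stands for. For Wnt5a, replicate 4 was the lowest library in 7 of the 8 co-cultures. With the replicate block 5 genes were called for the mean of the clones and 6 among the clones, where Wnt5a passed (edgeR adjusted p = 0.049), and Dkk3 with clone V passed as well (adjusted p = 0.047), which it also did with DESeq2 (0.047), library size scaling (0.023), at least 10 counts in every library (0.036) and limma on both log scales (0.012). Fitting the libraries compared alone also brought past the threshold Sfrp2 with clones E (0.048) and M (4.2e-04), Dkk2 with clone H (0.033) and KPC1 (0.032), and Dkk3 with clones H (0.037), M (0.038) and N (0.0047). Several of the described log2 differences of Wnt4, Rspo2 and Notum were closer to 0 on the log2(RPKM + 1) scale, and Lgr5 could not be tested at its counts. Wnt4 also moved on the log2(RPKM + 0.1) scale, from -2.66 to -1.14 with clone H and from -3.67 to -1.30 with clone V. With the 2 libraries per co-culture of lowest epithelial sum it was 1.60 with clone K and 0.84 with clone T.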
